A study of Mus musculus with 20 samples.

Results

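The clustered histone genes were followed through mouse germline stem cells, the cultured counterpart of spermatogonial stem cells, that kept or had lost Kmt2b, a methyltransferase that places H3K4me3 at promoters. Members were all rows whose symbol begins with Hist1h, Hist2h, Hist3h or Hist4h, which gave 68 of the 25965 rows with chromatin values and 67 of the 25067 rows with RNA values. The row without RNA was Hist2h3c1. By type there were 6 H1, 19 H2A, 18 H2B, 12 H3 and 13 H4 genes. By locus there were 55 in Hist1 on chromosome 13, 10 in Hist2 on chromosome 3, 2 in Hist3 on chromosome 11 and 1 in Hist4 on chromosome 6.

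H2A, H2B, H3 and H4 form the core of the nucleosome, and H1 binds the linker DNA between nucleosomes. Most of these genes lie in tandem clusters without introns, are transcribed in S phase when new DNA has to be packed, and make mRNAs that end in a stem-loop instead of a poly(A) tail. A few members are known for germ cells: Hist1h1t encodes the testis-specific linker histone H1t, and Hist1h2ba and Hist1h2aa, which lie head to head, encode the testis-specific H2B and H2A variants of spermatogenic cells.

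Control cells (F/F) carried Kmt2bF/F and Rosa26-CreERT2 and received ethanol only. Knockout cells (FC/FC) were of the same genotype and received 4-OHT, the active form of tamoxifen, at 1 μM, so the loss of Kmt2b cannot be told apart from exposure to 4-OHT. Both were grown on fibroblast feeder cells and taken 6 days later, and CreERT2 stands under the broadly active Rosa26 promoter. There were 2 control and 2 knockout libraries for each of H3K4me3, H3K27me3, the matched input DNA and RNA, and for H3K9me3 there were 2 control libraries beside 2 separate inputs, for which treatment and harvest day are not given in the sources used here. The libraries of a group came from separate cell lines, per the series' description, so p-values rest on the spread between 2 lines a group. In the main chromatin fits that spread was taken from all windows of similar level, so a window's own spread had no weight. In the RNA fit the spread was taken in part from other genes.

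Levels are given in RPM, the reads of a window or gene scaled by the mapped reads of its library. Depth was 3830000 to 18040000 reads for H3K4me3, with the knockout replicate 1 library the shallowest, 10540000 to 14810000 for H3K27me3, 10970000 to 14410000 for the matched inputs and 38460000 to 45770000 for RNA. In that shallow library 20.7% of reads fell in gene windows, against 25.6% to 29.0% in the other H3K4me3 libraries. Kmt2b, listed as Wbp7, stood at 142 and 150 RPM of RNA in control and 131 and 185 in knockout, but its row counts reads over the whole gene and so does not check the deletion. Summed over 14 germ cell markers, RNA was 2326 to 2380 RPM in control and 2337 to 2589 in knockout. The summed level of 12 fibroblast feeder markers was 455 to 489 RPM in control and 498 and 634 in knockout. Sertoli and Leydig markers (9 in the RNA table) summed to 22.2 to 27.8 RPM with Cyp17a1 and Hsd3b1 at 0 in every library, and 6 blood markers to 5.02 to 6.58 RPM.

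The promoters of the types differ in the short elements they hold, and 6 stretches are printed to show them. RefSeq promoters (assembly GRCm38.p6, the mm10 build, from 250 bases before to 50 after the start) were found for 62 of the 68 members, and none was found for Hist1h3f, Hist1h2bc, Hist1h3a, Hist1h2al, Hist2h2be and Hist2h4. Motifs were searched on both strands. Printed stretches end before the start of transcription and are given with the motif in capitals. The first 3 show the H2A and H2B octamer, which Oct factors bind, at a testis-specific and at an ordinary gene, and the H1 box of the linker histone with the most RNA. The other 3 show the H4 element at the H4 gene with the most H3K4me3 and at 2 H4 genes that are copies of each other.

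Hist1h2ba (chr13:23934242-23934406, minus strand): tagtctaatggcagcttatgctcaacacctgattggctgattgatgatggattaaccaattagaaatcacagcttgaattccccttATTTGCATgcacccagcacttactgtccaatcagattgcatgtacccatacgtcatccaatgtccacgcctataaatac

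Hist1h2bk (chr13:22035711-22035820, plus strand): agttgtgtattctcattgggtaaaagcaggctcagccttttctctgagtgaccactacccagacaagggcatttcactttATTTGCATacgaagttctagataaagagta

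Hist1h1c (chr13:23738687-23738806, plus strand): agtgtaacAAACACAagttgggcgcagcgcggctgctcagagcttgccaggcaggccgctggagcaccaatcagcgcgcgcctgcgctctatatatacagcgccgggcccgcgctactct

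Hist4h4 (chr6:136804432-136804511, minus strand): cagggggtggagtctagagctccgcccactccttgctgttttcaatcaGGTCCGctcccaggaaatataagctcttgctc

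Hist1h4m (chr13:21811664-21811743, plus strand): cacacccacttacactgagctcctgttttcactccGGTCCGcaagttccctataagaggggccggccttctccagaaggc

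Hist1h4n (chr13:21832199-21832278, minus strand): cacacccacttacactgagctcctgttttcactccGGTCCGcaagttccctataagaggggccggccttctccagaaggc

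The H4 element GGTCCG stood in 11 of 12 H4 promoters and in 8.25% of all 32851 promoters of the reference. Hist1h4a was the H4 promoter without it, and outside H4 it was found in Hist1h3i and Hist1h2bh. The H1 box AAACACA stood in 5 of 6 H1 promoters, Hist1h1a being the one without it, against 7.18% of all promoters. It was also in 2 of 18 H2A promoters (Hist1h2ab and Hist1h2aa) and 2 of 16 H2B promoters (Hist1h2bm and Hist1h2ba), and in no H3 or H4 promoter. The CCAAT box, read as CCAAT, was in every H1, H2A, H2B and H3 promoter with a sequence (6, 18, 16 and 10), in 3 of 12 H4 promoters and in 37.4% of all. The octamer ATTTGCAT was in 7 of 18 H2A and 6 of 16 H2B promoters, in no H1, H3 or H4 promoter, and in 1.74% of all. The TATA box, read as TATAAA, was in 40% to 66.7% of promoters of each type and in 13.6% of all. Promoters of head-to-head genes overlap, so one motif can count for both neighbours, and a match of letters is not a bound site.

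**Figure D1:**
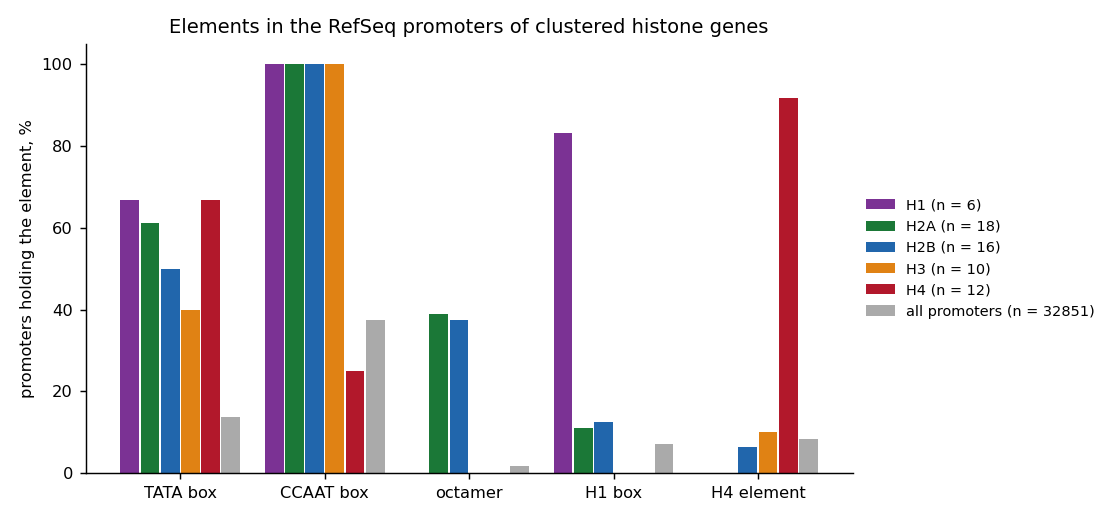
Share of promoters (%, vertical axis) that hold each of 5 elements, by histone type (coloured bars) and over all 32851 promoters of the reference (grey bars). The H1 box stands out in H1 (83.3%), the H4 element in H4 (91.7%), the octamer is seen in H2A and H2B, and the CCAAT box reaches 100% in every type but H4 (25%).

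Some copies had no reads in any chromatin library. Of the 62 promoters, 10 shared more than 60% of their 50-base words with another promoter of the reference, 2 shared 11.6% (Hist1h4j and Hist1h4k) and 50 shared none. The promoters of Hist1h4m and Hist1h4n were identical over 285 bases, the run to which the printed stretches belong. Hist1h2bq, Hist1h2ao, Hist1h2ap and Hist1h2br, which form 2 head-to-head pairs, had no read in any of the 16 chromatin libraries, as did 662 of all 25965 windows. A count of 0 allows up to 3 reads, or 0.166 to 0.783 RPM in the H3K4me3 libraries, for counting error only. All 7 members with too little H3K4me3 to be tested were among the 10 with shared promoters, so a low value at these windows cannot be told apart from reads that were not placed.

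In control cells H3K4me3 was found at almost all other histone gene windows. A window was counted as carrying the mark where both libraries exceeded their same-numbered input by at least 1.5 on the log2(RPM + 0.5) scale, which 60 of 68 members did, against 57.5% of all windows. The 8 without it were Hist1h4c and 7 of the windows with shared promoters. Hist1h2bp lay just inside with ratios of 1.61 and 2.23, and Hist1h4c just outside with 2.15 and 1.46. In knockout cells 58 of 68 members carried the mark, against 51.6% of all windows. Those without it in knockout included Hist1h2ba, Hist1h2aa and Hist1h3f, each with its second library above the threshold and that of the shallow replicate 1 below it. In knockout Hist1h2ac lay just inside, with 1.54 and 3.12, and Hist1h2aa just outside, with 1.36 and 2.31.

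Levels of H3K4me3 spread widely within the family. Hist4h4, a lone H4 gene outside the large clusters, was the highest, with 30.8 and 31.1 RPM in control and 33.4 and 31.5 RPM in knockout. Its values lay close together in all 4 libraries, and the nearest member in control, Hist2h2ab in the Hist2 locus, stood at 20.3 and 21.3 RPM. Hist2h2ab encodes an H2A, and its start lies 156 bases from that of Bola1, a gene outside the family, so both windows can hold the same reads. Hist2h4 had 15.8 and 22.2 RPM, and Hist1h4h 16.3 and 18.4 RPM with the start of Gm11335 101 bases away. In all, 11 members had a start of another gene within 1000 bases.

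By type, the control means ran from 8.74 ± 3.48 RPM at Hist1h1t to 14.9 ± 1.93 at Hist1h1a (SD, n = 2) for the linker histones. The 2 libraries of Hist1h1t, at 6.27 and 11.2 RPM, both lay below those of Hist1h1a, at 13.5 and 16.2 RPM. Among H2B genes the highest mean was that of Hist2h2bb at 12.8 ± 1.94 RPM, and among H3 genes that of Hist2h3b at 8.88 ± 0.688 RPM (SD, n = 2 each). Neither rank held in both control libraries: Hist3h2ba was above Hist2h2bb in replicate 1, and Hist1h3g above Hist2h3b in replicate 2. The lowest H3 and H4 windows were Hist2h3c1 at 0.505 ± 0.305 RPM and Hist1h4n at 0.277 ± 0.392 RPM (SD, n = 2 each), both with shared promoters. Window size is not given in the sources used here.

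**Figure D2:**
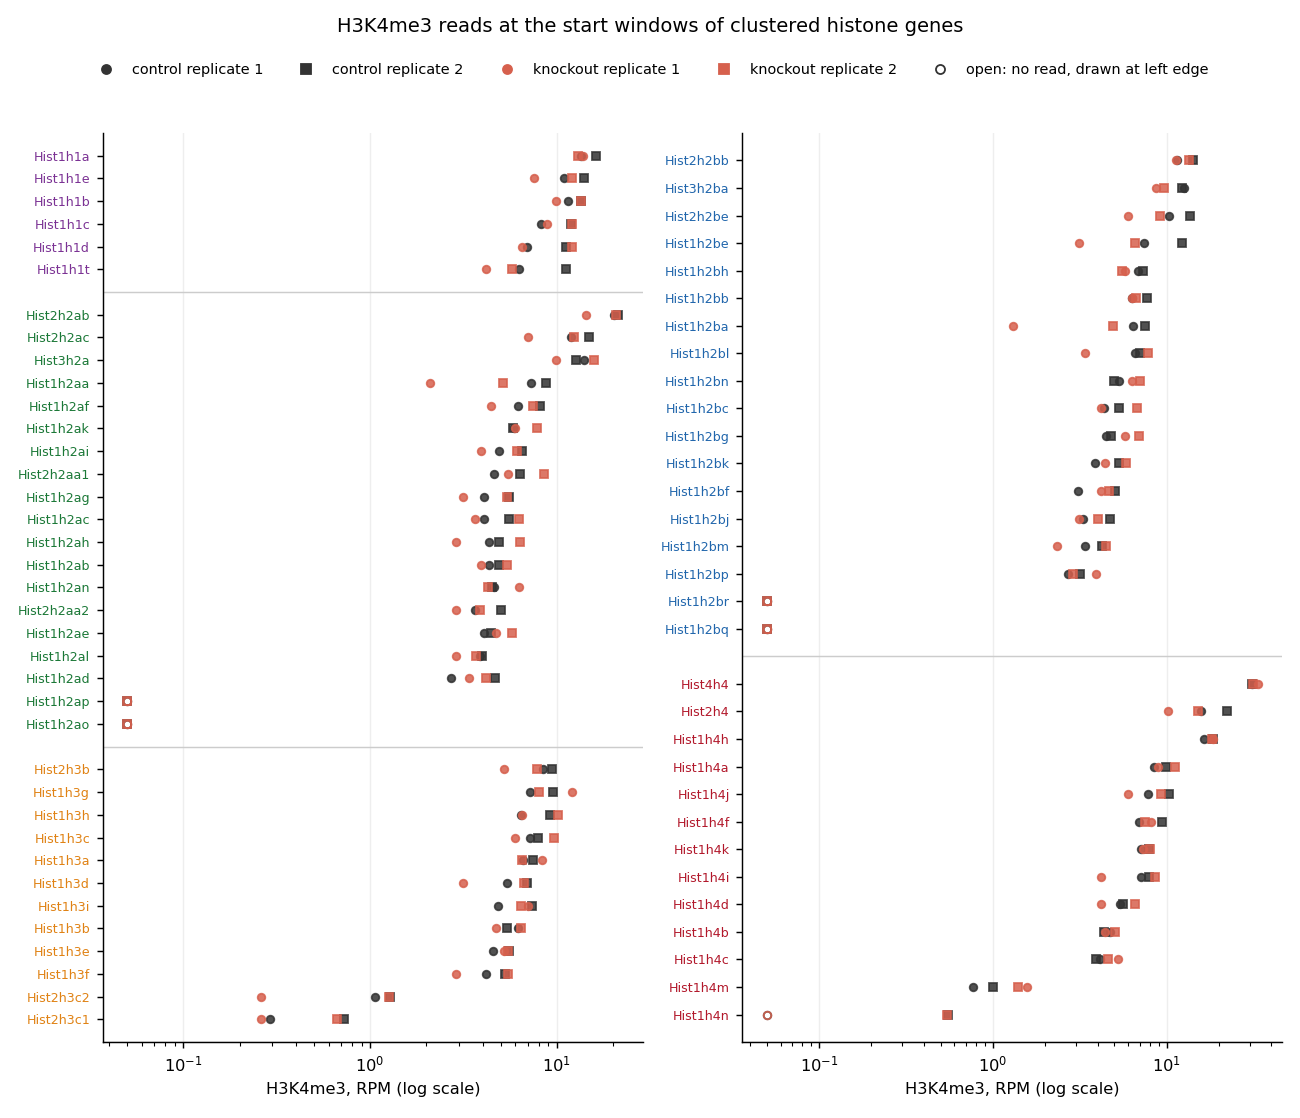
H3K4me3 in RPM (horizontal, log scale) at each of the 68 windows, one row per gene ordered by control mean within its type, with control libraries in black and knockout libraries in red (circles replicate 1, squares replicate 2, open symbols no read). The red circle of Hist1h2ba lies at 1.31 RPM, far left of its black points at 6.37 and 7.49 RPM, and Hist4h4 keeps all 4 points between 30.8 and 33.4 RPM.

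The comparison of knockout with control asked whether the mark at these genes changed with the loss of Kmt2b. Of 68 members, 61 reached the filter of a mean of 1 RPM, and limma called 0 lower and 0 higher at an adjusted p under 0.05. Over all 15624 windows tested, 9.9% were called lower and 0.0512% higher. Without adjustment, 3 members were lower and 0 higher at a p under 0.05, beside 24.7% and 0.314% of all windows. On recovered reads limma voom called 0 members in either direction, beside 16.6% of all windows lower and 0.717% higher. The change was below 0 in 33 of 61 members, beside 72.9% of all windows. The median log2 change of the members was -0.07, beside -0.26 over all windows tested. The sign depended on the scaling: the members' median was 0.19 when all windows were centred at 0, which shifted all windows by 0.26, and 0.92 after quantile normalization, where 25 of 61 members were called higher and 0 lower, beside 2.65% and 3.81% of all windows. No direction for the family as a whole follows from these libraries.

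The most negative log2 changes belonged to the testis-specific pair. Hist1h2ba (chr13:23933768-23934156, minus strand) had 6.37 and 7.49 RPM in control and 1.31 and 4.89 RPM in knockout, of which the 1.31 RPM were 5 reads. Its partner Hist1h2aa (chr13:23934462-23934851, plus strand) had 7.24 and 8.71 RPM in control and 2.09 and 5.13 RPM in knockout. Both knockout values lay below both control values at each gene, and the starts are 306 bases apart, so the 2 windows can hold the same reads and count as one observation. Input also stood lower in knockout without overlap, on average 0.792 against 0.541 RPM at Hist1h2ba and 0.838 against 0.569 RPM at Hist1h2aa, and its part in the result was not tested. The log2 change was -1.45 (SE 0.57, limma adjusted p = 0.0805) for Hist1h2ba and -1.28 (SE 0.54, limma adjusted p = 0.105) for Hist1h2aa. Neither passed the threshold, whereas both were called lower with a replicate block, beside 25.8% of all windows. Over same-numbered input Hist1h2ba stood at -0.94 (limma adjusted p = 0.396). The size rested on the shallow library: without it Hist1h2ba stood at -0.50, and without knockout replicate 2 at -2.40. Over 12 alternatives the change of Hist1h2ba ran from -2.40 to -0.23.

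Hist1h2be, an H2B gene whose row spans 37383 bases of the Hist1 locus, had the next most negative change. It had 7.43 and 12.2 RPM in control and 3.13 and 6.57 RPM in knockout, groups that did not overlap, with a log2 change of -1.07 (SE 0.49, limma adjusted p = 0.144). Over 12 alternatives it ran from -1.60 to -0.08 (limma adjusted p from 0.00033 to 1), passing the threshold with a replicate block and without knockout replicate 2 (-1.60), and standing at -0.53 without knockout replicate 1. Hist1h1t, the testis linker histone (chr13:23695811-23696719), had 6.27 and 11.2 RPM in control and 4.18 and 5.73 RPM in knockout. These groups did not overlap either, and the change of -0.78 (SE 0.50, limma adjusted p = 0.348) turned to 0.25 after quantile normalization. It was -0.25 over same-numbered input, which averaged 1.03 RPM in control and 0.64 RPM in knockout. The change was -0.36 without control replicate 2 and -1.005 without knockout replicate 2. Over 12 alternatives the change of Hist1h1t ran from -1.195 to 0.25. Hist1h1a, another linker histone gene, had 13.5 and 16.2 RPM in control and 13.8 and 13.03 RPM in knockout, so its groups overlapped.

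The increases were smaller. Hist1h4m changed by 0.75 (SE 0.79, limma adjusted p = 0.663) on few reads, from 8 and 18 in control to 6 and 23 in knockout, at a window whose promoter is shared with Hist1h4n. Hist1h2bg, an H2B gene, went from 4.44 and 4.77 RPM to 5.74 and 6.94 RPM (0.46, SE 0.53, limma adjusted p = 0.701). Hist1h2bn went from 5.31 and 4.99 RPM to 6.27 and 7.00 RPM (0.36, SE 0.51, limma adjusted p = 0.775). At both H2B genes the groups did not overlap, and the changes were smaller than their standard errors, which come from windows of similar level.

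Across the family, 10 of 61 tested members had both knockout values below both control values and 7 had both above, beside 42.8% and 8.98% of all windows tested. By locus, 7 of the 8 tested Hist2 members had a log2 change below 0, with a median of -0.42, whereas the 50 tested Hist1 members had a median of 0.01, with 24 below 0, beside 72.9% of all windows. The Hist2 median was -0.67 without knockout replicate 2, -0.13 without knockout replicate 1, -0.16 with median centring and 0.29 (2 of 8 below 0) with quantile normalization. The Hist1 median ran from -0.24 to 0.15 on leaving out a library and was 0.27 with median centring and 0.99 with quantile normalization. Hist2h2be was at -0.67 and Hist2h4 at -0.60, while Hist2h2aa1 was at 0.33. The loci were not tested against each other, and 7 of the 10 Hist2 windows lie within 1000 bases of the start of a gene outside the family whose symbol begins with Gm, besides Hist2h2ab beside Bola1. In Hist3, Hist3h2ba (chr11:58948911-58949532) had 12.5 and 12.3 RPM in control and 8.62 and 9.65 RPM in knockout, apart from each other but with an adjusted p of 0.576 in limma. Hist3h2a (chr11, start 58954685) had 13.9 and 12.6 RPM against 9.92 and 15.8 RPM, which overlap, and Trim17 has the same listed start.

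By type, the median log2 change in H3K4me3 was -0.12 for the 6 H1 genes, -0.11 for 17 H2A, -0.13 for 16 H2B, 0.05 for 10 H3 and 0.04 for 12 H4 genes. None of these signs was stable: on leaving out a library the medians ran from -0.38 to 0.04 for H1, -0.45 to 0.20 for H2A, -0.32 to 0.07 for H2B, -0.27 to 0.13 for H3 and -0.03 to 0.11 for H4. The lower ends came without knockout replicate 2 (for H2B without control replicate 1) and the upper ends without knockout replicate 1 (for H2B and H3 without control replicate 2). With median centring and with quantile normalization all 5 were above 0. Head-to-head neighbours had similar changes. There were 13 pairs on opposite strands with starts 168 to 693 bases apart, 12 of them an H2A with an H2B gene and 1 (Hist1h2bh with Hist1h3f) an H2B with an H3 gene. In the 11 pairs with both windows tested, the 2 log2 changes had a Spearman rho of 0.955, a description only, since such windows share libraries and can share reads. The pair with the most H3K4me3 in control was Hist2h2ac with Hist2h2be, at 13.4 and 11.9 RPM on average.

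Repressive marks were low at the family. Of 68 members, 0 carried H3K27me3 in control and 0 in knockout (at least 1 over input on the log2(RPM + 0.5) scale in both libraries), beside 9.8% and 13.1% of all windows. No member reached a mean of 1 RPM, so none entered the test of knockout against control, in which limma called 0% of 4807 windows lower and 0.791% higher. Without the filter, 63 members were tested and limma called 0 in either direction, with 1 lower and 6 higher without adjustment (1.07% and 5.6% of all windows). Over all 4 libraries the highest mean was that of Hist2h4, with 8 and 6 reads in control and 26 and 10 in knockout (0.547, 0.549, 1.76 and 0.949 RPM), while in control alone it was that of Hist1h4c, with 6 and 11 reads (0.709 RPM on average). H3K9me3, measured in control only, was carried by 0 of 68 members and by 1.93% of all windows. Its median was 0.0281 RPM over members beside 0.076 RPM over all windows, with the highest mean at Hist1h2ba, 0.233 RPM. The inputs of H3K9me3 were also lower at members, with a median of 0.254 RPM beside 0.425 RPM over all windows. The matched input itself gave 0 member calls of 61 in limma (0% of 15624 windows in either direction), with 0 lower and 1 higher without adjustment (2.53% and 2.21% of all windows), and limma voom likewise gave 0 calls.

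RNA was present from most of the family at low to moderate levels. The sources used here do not say whether the libraries were made from poly(A)-selected RNA, which bears on mRNAs without a tail, so RNA levels are of what these libraries captured. Levels between genes are compared per kilobase of the row's span, and only among the 56 rows of up to 2000 bases, since 11 rows are longer. Of the 56 rows, 6 still span more than 1.5 times the RefSeq length of their gene, which lowers their value. Hist1h1c, a somatic linker histone, was the highest, with 15.8 and 11.2 RPM per kb in control. Hist1h2ag, an H2A gene, followed with 13.9 and 12.4 RPM per kb, a difference within the spread of Hist1h1c. The row of Hist1h1c spans 1560 bases against a RefSeq length of 725. Per kilobase of RefSeq length it stood at 33.9 and 24.2 RPM, above the 13.8 and 12.4 RPM of Hist1h2ag. On that scale Hist1h4i (16.8 and 15.4 RPM), Hist1h2ai (15.2 and 12.5 RPM) and Hist1h2ap (14.3 and 12.8 RPM) lay between them. The order below Hist1h1c thus depends on the length used.

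On the same scale, the median in control was 9.15 RPM per kb over 16 H2A rows, 6.38 over 12 H4, 4.402 over 12 H2B, 2.72 over 11 H3 and 1.09 over 5 H1 rows. Within H2A the lowest was the testis-specific Hist1h2aa at 0.440 RPM per kb, and within H2B Hist1h2bp at 2.09. The row of Hist1h2bp spans 1753 bases, against 381 for Hist1h2bl. Before division by length it had 3.66 RPM, above the 2.62 RPM of Hist1h2bl. Hist1h4i led the H4 genes at 12.1 RPM per kb. By mean, Hist1h3h was the highest H3 gene at 5.04 RPM per kb, and Hist1h2bl the highest H2B gene at 6.88. Neither lead held in control replicate 2. There Hist1h3a was at 4.98 against 4.80 RPM per kb, and Hist1h2bk at 7.25 against 6.86. Per kilobase of RefSeq length Hist1h2bg, at 8.24 and 7.97 RPM, stood above Hist1h2bl, at 5.55 and 5.53.

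Several copies had near-equal RNA read counts. Of the 52 members with at least 40 reads in every library, 19 were within 5% of another member in each of the 4 libraries, forming 19 such pairs. Linked through these pairs they made 5 sets, within which members differed by up to 12.4% in a library. One set held 6 H2A genes (Hist1h2ai, Hist1h2ao, Hist1h2ap, Hist1h2ah, Hist1h2ag and Hist1h2ad) and another 6 H4 genes (Hist1h4j, Hist1h4k, Hist1h4h, Hist1h4c, Hist1h4b and Hist1h4a). Hist1h4m and Hist1h4n had exactly 102 and 114 reads in control and 82 and 69 in knockout, each. Such copies encode the same or nearly the same protein. Whether they share reads was not tested beyond these counts, and their values are uncertain as values of single genes, and their tests may not be independent.

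The genes with the most H3K4me3 were not those with the most RNA. Hist4h4, with the most H3K4me3, had 2 and 2 RNA reads in control and 7 and 1 in knockout over a row of 2879 bases. Hist2h4 had 0 and 1 reads in control and 0 and 3 in knockout. Not every window high in H3K4me3 had little RNA. Hist1h4h, at 17.3 RPM of H3K4me3 on average in control, had 6.61 and 6.96 RPM of RNA per kb there. It is among the H4 copies with near-equal counts. Hist1h1b, a linker histone gene with 11.5 and 13.4 RPM of H3K4me3 in control, had 2 and 1 RNA reads there and 3 and 4 in knockout. Hist1h1t had 4 and 2 RNA reads in control and 4 and 3 in knockout. Of the testis-specific pair, Hist1h2aa had 8 and 6 reads against 6 and 1, while Hist1h2ba had 55 and 55 against 55 and 49.

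**Figure D3:**
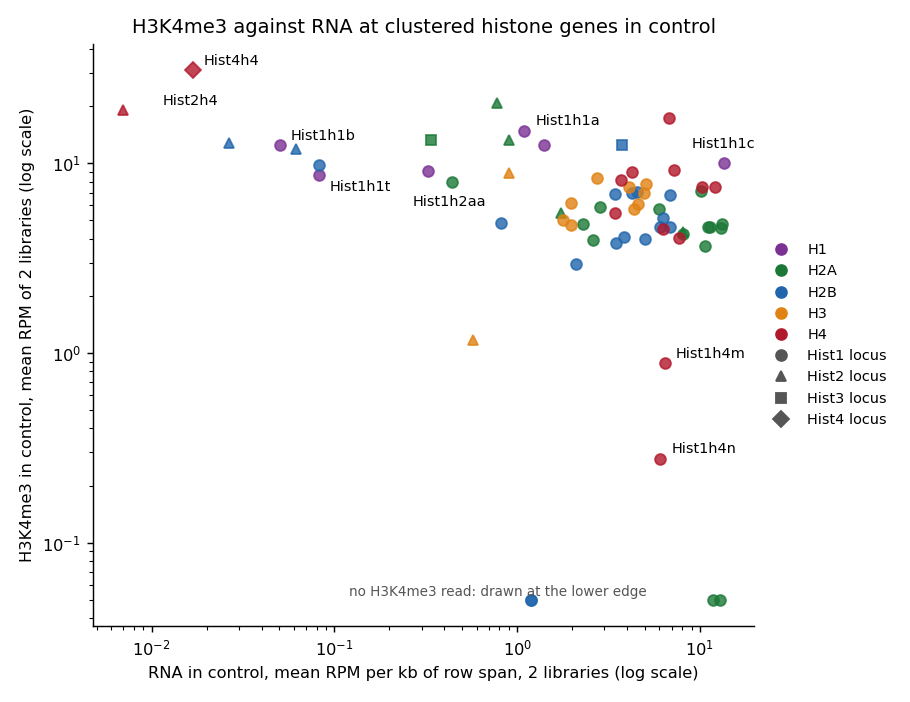
Mean H3K4me3 (vertical, RPM, log scale) against mean RNA (horizontal, RPM per kb of row span, log scale) of 67 members in the 2 control libraries, coloured by type and shaped by locus. Hist4h4 and Hist2h4 stand at upper left with high H3K4me3 and almost no RNA, and the members at the lower edge have RNA reads but no chromatin read.

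RNA changes in the family were small and nearly all below 0, and none passed the test. Of 67 members, 53 reached the filter of a mean log2 RPM of 0, and limma called 0 lower and 0 higher, beside 0.312% and 3.01% of the 14100 genes tested. Without adjustment, 8 members were lower and 0 higher at a p under 0.05, beside 3.6% and 16.5% of all genes. On recovered reads limma voom also called 0 members in either direction, beside 0.319% of all genes lower and 2.94% higher. The median log2 change was -0.28, beside 0.06 over all genes tested, and it ran from -0.52 to -0.20 over 11 alternatives, quantile normalization giving the -0.52. In 52 of 53 members the change was below 0, beside 38.2% of all genes, and in 38 both knockout values lay below both control values, beside 16% of all genes. In 0 members both lay above, beside 36.2% of all genes. Without knockout replicate 2, 46 of 53 lay below 0, beside 47.3% of all genes. Members with near-equal counts may not be separate measurements in these numbers.

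Hist1h1c (chr13:23738807-23740366) had the most negative log2 change in RNA. It stood at 24.6 and 17.5 RPM in control and at 13.6 and 10.9 RPM in knockout. All knockout values lay below all control values, on 435 to 946 reads per library. The log2 change was -0.77 (SE 0.19, limma adjusted p = 0.0754), not past the threshold. It passed without control replicate 2 (-1.01), without knockout replicate 1 (-0.93) and without knockout replicate 2 (-0.61), fits in which the lone sample is assumed to vary like the others, and with a replicate block (limma adjusted p = 2.26e-06), but not without control replicate 1 (-0.53). Over 11 alternatives the change stayed between -1.01 and -0.53, with adjusted p from 9.25e-22 to 0.401.

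Among H2B genes, Hist1h2bn had 2.31 and 2.46 RPM in control and 1.49 and 1.55 RPM in knockout (-0.65, SE 0.19, limma adjusted p = 0.123). The groups stood apart with little spread inside each. Hist1h4m and Hist1h4n, with one set of counts, had 2.65 and 2.57 RPM against 1.79 and 1.72 RPM (-0.57, SE 0.18, limma adjusted p = 0.148), again without overlap. The other members with an unadjusted p under 0.05 were Hist1h2bh, Hist1h2bl, Hist1h2bg and Hist1h4i, at -0.52 to -0.39.

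Hist3h2a was the one tested member above 0, with 6.81 and 5.59 RPM in control and 8.67 and 6.37 RPM in knockout (0.27, SE 0.19, limma adjusted p = 0.481). Its groups overlapped, and its RNA row reaches from 58954685 to 58973098 on chromosome 11, the span under which Trim17 is listed among the chromatin rows. Hist3h2ba had 2.65 and 2.03 RPM against 2.62 and 2.05 RPM (0.00, SE 0.22), and Hist1h4f 1.17 and 1.71 RPM against 1.44 and 1.37 RPM (-0.01, SE 0.26), both overlapping and both with a sign that changed between alternatives. Hist1h2ba, with the most negative log2 change in H3K4me3, had 1.43 and 1.24 RPM of RNA in control and 1.20 and 1.22 RPM in knockout. Its RNA change was -0.13 (SE 0.23, limma adjusted p = 0.80).

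**Figure D4:**
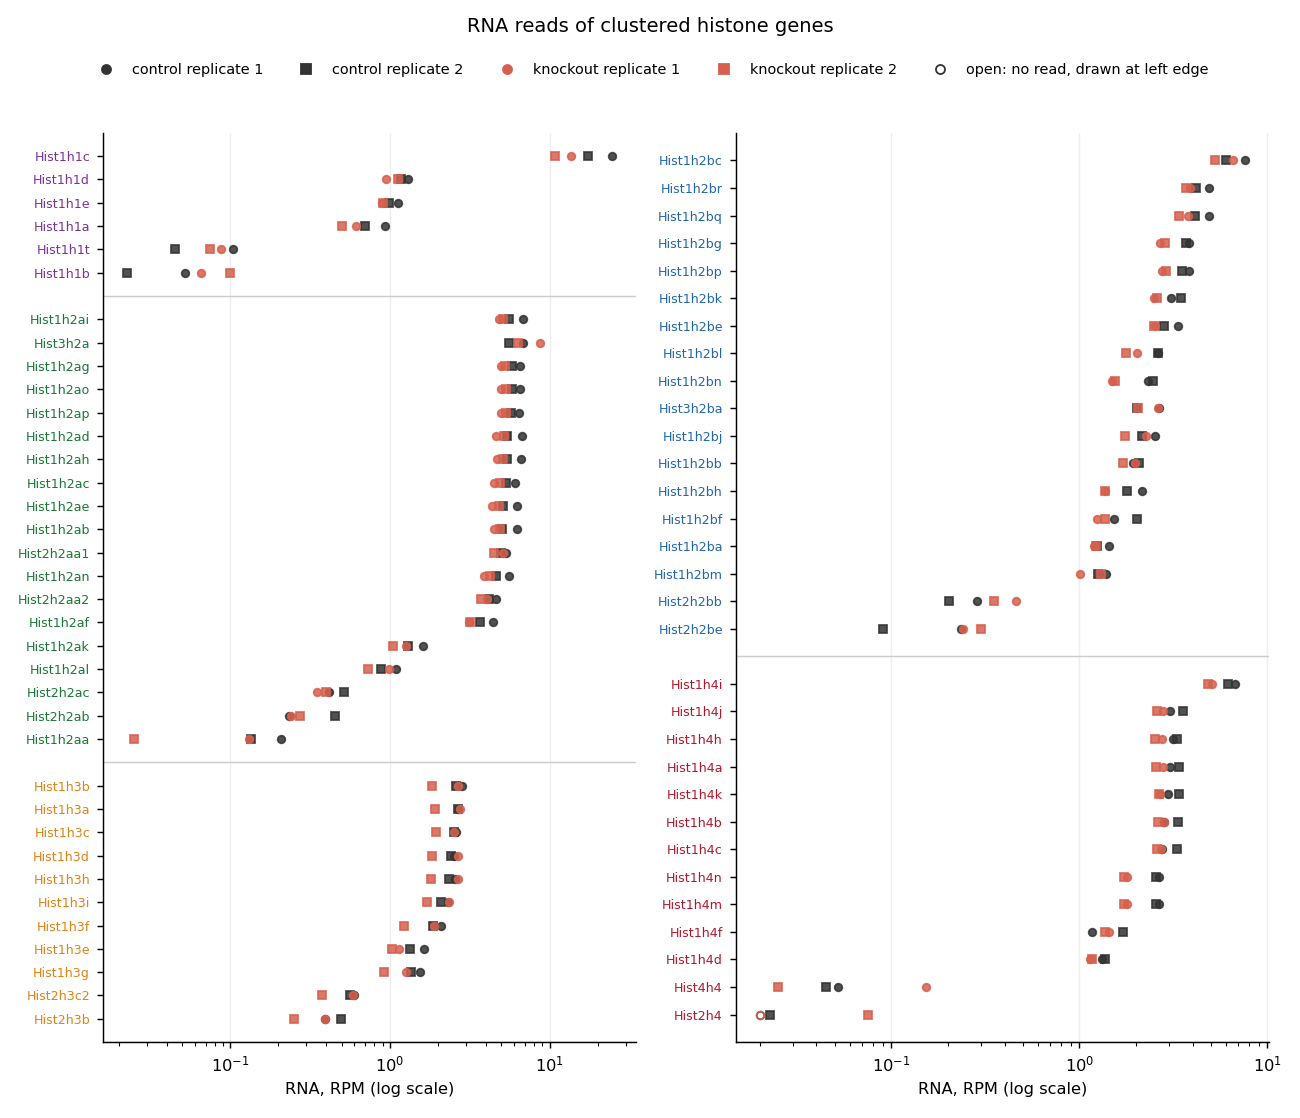
RNA in RPM (horizontal, log scale, not divided by length) of the 67 members, one row per gene ordered by control mean within its type, with control libraries in black and knockout libraries in red (circles replicate 1, squares replicate 2, open symbols no read). Red points lie left of black ones in most rows, as at Hist1h1c, while Hist3h2a has its red points right of the black points of the same replicate.

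By type, the median RNA change was -0.52 for 2 H1 genes, -0.28 for 15 H2A, -0.31 for 16 H2B, -0.21 for 9 H3 and -0.27 for 11 H4 genes. Of the 9 H3 genes 2 had knockout values that both lay below control, as had 13 of 15 H2A, 11 of 16 H2B and 10 of 11 H4 genes, beside 16% of all genes. Without knockout replicate 2 the H3 median was -0.01, with 5 of 9 below 0, and without knockout replicate 1 it was -0.47. Without control replicate 1 the medians were -0.17 for H2A and -0.19 for H2B, and without control replicate 2 that of H2A was -0.42. With quantile normalization the medians were -0.52 for H2A, -0.55 for H2B, -0.45 for H3 and -0.52 for H4. Hist1h3h, an H3 gene with overlap, had 2.57 and 2.34 RPM in control and 2.69 and 1.799 RPM in knockout. By locus, 49 of 49 tested Hist1 genes lay below 0, as did both tested Hist2 genes, Hist2h2aa1 and Hist2h2aa2, at -0.11 and -0.16, beside 38.2% of all genes. Without knockout replicate 2, 44 of 49 Hist1 genes lay below 0. The Hist2 median of -0.14 was -0.05 without knockout replicate 2, -0.07 without control replicate 1 and -0.22 without knockout replicate 1.

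**Figure D5:**
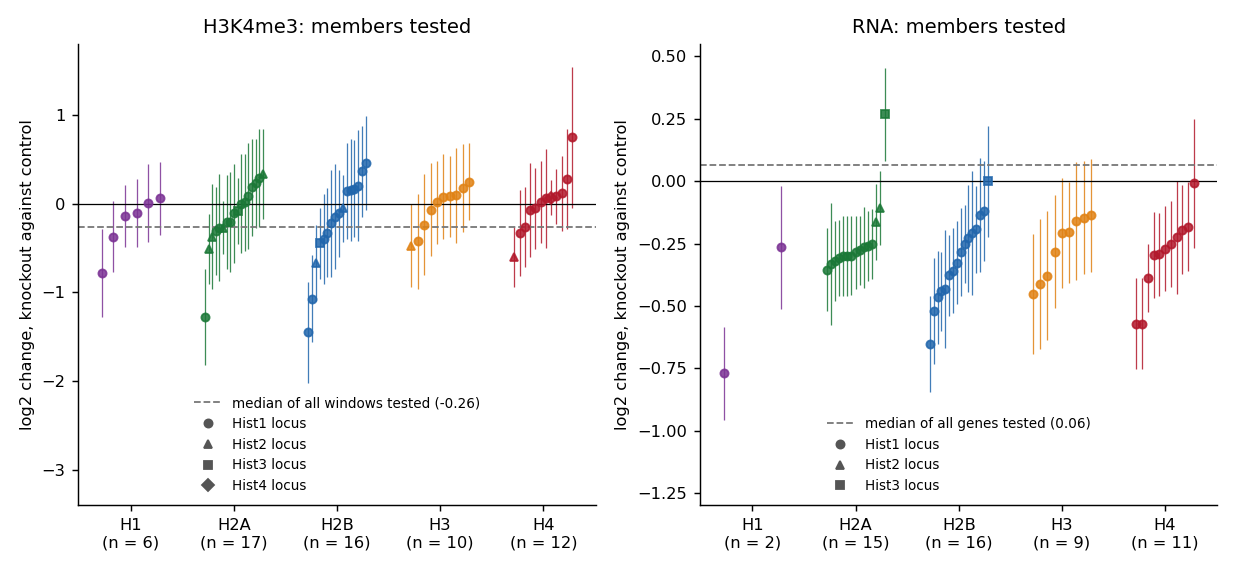
Log2 change of knockout against control (vertical) in H3K4me3 (61 members, left) and RNA (53 members, right) by type, one point per gene shaped by locus, with bars of 1 standard error. The dashed lines are the medians over all windows (-0.26) and all genes (0.06) tested; most RNA points lie below 0, and the H3K4me3 points lie on both sides.

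Genes around the family gave the following counts in RNA. Of 31 S phase genes tested, 0 were called by limma in either direction, 30 lay below 0 and the median was -0.25, with 14 lower and 0 higher without adjustment. Over all genes 38.2% lay below 0, and 3.6% were lower and 16.5% higher without adjustment. The S phase genes include Pcna, the sliding clamp of DNA polymerase, at -0.32 (SE 0.09) and Mcm5, a subunit of the replicative helicase, at -0.36 (SE 0.12). The cell cycle factor E2f1 was at 0.00 (SE 0.10). Mcm5 stood at 207 and 210 RPM in control but differed between the knockout libraries, at 145 and 183 RPM. Pcna had 107 and 104 RPM in control and 86.1 and 81.8 RPM in knockout. Whether the share of cells in S phase moved with the histone RNA was not tested. Fewer cells with histone RNA and less of it per cell cannot be told apart in these bulk libraries.

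The machinery that transcribes histone genes and cuts their mRNA at the stem-loop gave 0 calls of 27 in limma (3 lower and 1 higher without adjustment), with a median of -0.04. Slbp, which binds the stem-loop and also stands in the S phase list, was at 147.8 and 146.8 RPM in control and 120.8 and 122.3 RPM in knockout (-0.28, SE 0.09, limma adjusted p = 0.146). Npat, the coactivator that sits on histone clusters, was at -0.26 (SE 0.14). Histone chaperones gave 0 calls of 17 (1 lower and 1 higher unadjusted) with a median of -0.08.

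Histone variants coded outside the clusters, most of them replacement histones that can be made without DNA replication, gave 0 calls of 11 in RNA with a median of -0.06 (3 lower and 1 higher unadjusted). H1f0, a replacement linker histone, was at -0.36 (SE 0.10, limma adjusted p = 0.0989), and H3f3b, which encodes H3.3, at -0.30 (SE 0.10). In H3K4me3, 1 of 12 tested windows of this list was called lower, beside 9.9% of all windows: H1fnt, the linker histone of spermatids, at -3.06, where input was 1.19 RPM in control and 0.387 RPM in knockout on average. In H3K4me3 limma called 0 of 25 windows of the transcription and processing list, 0 of 17 chaperone windows and 0 of 31 S phase windows, with medians of 0.09, 0.01 and -0.02 and with 0, 0 and 1 lower without adjustment.

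Markers of cell types moved as follows beside these results. In RNA limma called 3 of 14 germ cell markers higher (Gfra1, Nanos2 and Ret), 2 of 12 feeder markers higher (Col1a1 and Pdgfra), and 0 of 5 Sertoli and Leydig and 0 of 2 blood markers, beside 3.01% of all genes. In H3K4me3 it called 1 of 13 germ cell windows lower (Dppa5a), 1 of 10 feeder windows lower (Vim), 1 of 4 Sertoli and Leydig windows lower (Cldn11) and 0 of 1 blood window, beside 9.9% of all windows. Their part in the histone values was not tested.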

How the data were processed

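The authors deposited log2 RPM per gene, for 1 window per gene in 16 chromatin libraries and for RNA in 4 libraries, not divided by input or length. Bowtie 1.1.1, TopHat2 2.0.14, Trim Galore 0.4.0, CASAVA 1.8 and the build mm10 are named in the submitters' processing notes. Values were whole multiples of 1 read in 100% of cases (within 0.1 read), which gave reads and depth; features without a read stand at 0.9 of a read.

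Knockout was compared with control per assay with limma 3.58.1 (R 4.3.3) on the deposited log2 values with a mean-variance trend, over every window averaging 1 RPM or more, and every gene averaging 0 or more in log2 RPM, with input on the windows kept for H3K4me3. P-values are two-sided, adjusted by Benjamini-Hochberg across all features, with 0.05 as the threshold. The fit was also run on simulated reads with the same relative spread for every feature. These do not copy the differences between the cell lines, so that run does not check the results given here. Motifs, shared words of 50 bases and near-equal counts were computed in Python 3.11.15.

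Members and lists were chosen with earlier results of these data known. Named genes were the testis members with Hist1h1a, the Hist3 and Hist4 members, the 3 largest changes each way, the highest and lowest of each type and those beside a threshold; other members named were chosen after their values were seen. Alternatives were other scalings, filters, a pseudocount of 0.5 RPM, limma voom, the replicate block, input ratios and leaving out each library.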

Additional observations from a re-analysis of the deposited data

How the results depend on the processing

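In H3K4me3, quantile normalization called 25 members higher (2.65% of all windows) and moved the members' median to 0.92, and median centring moved it to 0.19. With a replicate block 4 members were called lower in H3K4me3 (Hist1h2aa, Hist1h2ba, Hist1h2be and Hist2h4, beside 25.8% of all windows) and 1 in RNA (Hist1h1c, beside 1.38% of all genes). The labels do not say that a replicate number marks a shared cell line, and same-numbered deviations correlated at 0.149 in H3K4me3, 0.0617 in H3K27me3, 0.0909 in RNA and -0.000168 in input. Quantile normalization turned Hist1h1t to 0.25, Hist1h1a to 0.29, Hist2h2be to 0.10, Hist3h2ba to 0.23, Hist3h2a to 0.47 and Hist4h4 to -0.061. Median centring turned Hist1h1a to 0.12 and Hist3h2a to 0.18, input ratios turned Hist1h1a to 0.042, and limma voom turned Hist3h2a to 0.12 in H3K4me3 and Hist3h2ba to 0.014 in RNA. In RNA quantile normalization gave a median of -0.52. In input, the median of -0.25 became -0.15 with quantile normalization and -0.12 with a pseudocount. A pseudocount of 0.1 RPM let 2 members carry H3K27me3 in knockout. The causes were not tested.

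Leaving out each library, which leaves 1 arm with a lone sample assumed to vary like the others, gave 0 to 9 members called lower and 0 called higher in H3K4me3 (9 of 61 without knockout replicate 2, beside 44.1% of all windows) and medians of -0.30 to 0.12. In RNA it gave 0 to 9 lower (9 of 53 without knockout replicate 1, beside 10.2% of all genes, 8 without knockout replicate 2, beside 22%, and 1 without control replicate 2, beside 0.213%) and 0 to 1 higher (Hist3h2a without knockout replicate 2, beside 20.9%), and in input medians of -0.38 to -0.13. By gene it gave -0.42 to 0.25 for Hist3h2a in H3K4me3 (above 0 without knockout replicate 1), and in RNA -0.19 to 0.19 for Hist3h2ba (above 0 without control replicate 1, and 0.18 without knockout replicate 2) and -0.28 to 0.27 for Hist1h4f (above 0 without control replicate 2, and 0.03 without knockout replicate 2). Depth limits H3K4me3 most in knockout replicate 1, at 3830000 reads.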
